A study of Mus musculus with 59 samples.

Results

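The 8 genes Ppp1r3b, Ppp1r3c, Ppp1r3d, Ppp1r3g, Gys2, Pygl, Gbe1 and Phka2, which belong to the storage and breakdown of glycogen, were followed in liver, bone marrow and spleen of mice given baclofen. Members were the probe sets whose platform annotation gives exactly 1 gene symbol, where that symbol is one of these 8. The rule found 11 probe sets out of 34945 with 1 symbol, and the 8 genes out of 18193. Ppp1r3c has 2 probe sets, Phka2 has 3 and the other genes have 1 each. The genes were listed by their function when differences of these livers, above all that of Ppp1r3g, were already known. Their liver differences between baclofen and vehicle, and every comparison with another time or tissue that contains them, are therefore given as a description, without a test. Earlier results of the other tissues may also have been known, so the members' p-values in marrow and spleen are descriptive.

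The mice were of the hybrid strain B6C3F1. Each group received baclofen, an agonist of the GABA-B receptor used as a muscle relaxant, or the vehicle, 0.5% methylcellulose, once a day for 1 or 5 days, and tissue was taken 2 h after the last dose. No allele or transgene is named, and dose, sex and age are not given in the labels. Liver was measured on 3 vehicle and 4 baclofen arrays at 1 day and on 4 and 8 at 5 days, and marrow of the humerus and spleen each on 4 and 4 arrays at 1 day and on 4 and 8 at 5 days, 59 arrays in all. Replicates are numbered, but no label states that they are separate animals, so p-values measure the spread between arrays, which may be technical.

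Values are log2 of the deposited probe set intensity. The median intensity of an array lay between 34.7 and 36.8 in liver, between 72.6 and 76.1 in marrow and between 74.3 and 77.6 in spleen, so the tissues appear to have been normalised apart and levels are compared only within a tissue. The title gave the treatment of each array and matched the treatment field throughout, whereas the source field disagreed with both in 5 of the 7 livers taken at 1 day. The mean of 10 hepatocyte markers ran from 14.30 to 14.57 in the livers, from 5.11 to 5.78 in marrow and from 4.97 to 6.18 in 17 of the 20 spleens. It was 7.05, 9.56 and 9.33 in the other spleens, vehicle 5 day replicates 1 and 3 and baclofen 5 day replicate 5. Of the marrows, 19 had a mean of 10 skeletal muscle markers between 6.66 and 7.78, and baclofen 1 day replicate 3 had 9.53. Results that rest on these 4 arrays are given with and without them.

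Glycogen is the branched glucose store of liver and muscle. Glycogen synthase (Gys2 in liver) lengthens the chains and the branching enzyme (Gbe1) sets the branches, while glycogen phosphorylase (Pygl in liver) releases glucose units after phosphorylase kinase, whose liver alpha subunit is encoded by Phka2, has activated it. The Ppp1r3 proteins are regulatory subunits that bring protein phosphatase 1 to the glycogen particle, where it removes phosphate from synthase and phosphorylase and so favours storage. Ppp1r3b is the main one of hepatocytes, Ppp1r3c is also called protein targeting to glycogen, Ppp1r3d is broadly expressed, and Ppp1r3g is a liver subunit regulated by feeding.

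In RefSeq (GRCm38.p6) the genes lie at chr13:35958824-35970388 (Ppp1r3g, NCBI Gene 76487), chr19:36731731-36736604 (Ppp1r3c, 53412), chr2:178411206-178414463 (Ppp1r3d, 228966), chr8:35375694-35388139 (Ppp1r3b, 244416), chr6:142422612-142473130 (Gys2, 232493), chr16:70313949-70569720 (Gbe1, 74185), chr12:70190815-70227683 (Pygl, 110095) and chrX:160501904-160598879 (Phka2, 110094). A promoter window, from 250 bases before to 50 after the annotated start, was read for 6 of the 8, all but Gys2 and Ppp1r3b. Windows are shown for the 3 targeting subunits with the largest differences in these arrays, Ppp1r3g and Ppp1r3c in liver and Ppp1r3d in marrow. They are Ppp1r3g at chr13:35967656-35967955 on the plus strand, which lies inside the annotated span of the gene, Ppp1r3c at chr19:36736555-36736854 on the minus strand and Ppp1r3d at chr2:178414414-178414713 on the minus strand, all written 5′ to 3′ along the gene. Capitals mark TGACG, the core of the cAMP response element, and its reverse complement CGTCA, and the E-box CACGTG.
Ppp1r3g: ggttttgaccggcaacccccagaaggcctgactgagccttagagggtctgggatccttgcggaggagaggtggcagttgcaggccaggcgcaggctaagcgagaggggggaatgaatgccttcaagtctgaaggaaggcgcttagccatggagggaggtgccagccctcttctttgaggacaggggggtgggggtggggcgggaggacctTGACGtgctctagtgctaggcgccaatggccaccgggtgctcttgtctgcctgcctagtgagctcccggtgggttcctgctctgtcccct
Ppp1r3c: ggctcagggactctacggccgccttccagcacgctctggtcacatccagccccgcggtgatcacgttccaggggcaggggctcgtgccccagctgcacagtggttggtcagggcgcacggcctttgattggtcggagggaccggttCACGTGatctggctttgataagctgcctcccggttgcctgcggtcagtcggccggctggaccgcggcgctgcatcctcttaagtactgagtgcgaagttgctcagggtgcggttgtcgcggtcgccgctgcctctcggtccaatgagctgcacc
Ppp1r3d: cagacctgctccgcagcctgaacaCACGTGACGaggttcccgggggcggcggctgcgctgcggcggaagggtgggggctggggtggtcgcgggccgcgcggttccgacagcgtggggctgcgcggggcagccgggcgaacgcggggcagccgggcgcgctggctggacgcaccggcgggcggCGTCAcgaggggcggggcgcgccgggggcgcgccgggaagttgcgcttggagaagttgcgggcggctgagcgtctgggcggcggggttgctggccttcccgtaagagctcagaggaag
The core TGACG begins at -40 from the start in Ppp1r3g. In Ppp1r3d it stands at -222 and, on the other strand, at -68, and the first of these overlaps the E-box at -226. Ppp1r3c has an E-box at -104 and no TGACG in its window.

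Of all 32851 mouse promoter windows of this length, 20.8% hold TGACG on either strand and 7.15% hold CACGTG; 3 of the 6 windows read here hold the first (Ppp1r3g, Ppp1r3d and Pygl) and 2 the second. The full palindrome TGACGTCA, found in 1.79% of all windows, was in 0 of the 6. The sequence AGAACA of the glucocorticoid receptor site, in 19% of all windows, was found in Phka2 alone, at -153, and GTAAACA of the FOXO factors, in 3.65%, in none of the 6. These are matches of letters and were not tested for binding.

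In liver, the largest differences in the set were those of the targeting subunit genes Ppp1r3g at both times and Ppp1r3c after 1 dose. Ppp1r3b was higher on average at both times, Gys2 and Gbe1 differed by 0.21 and 0.12 after 1 dose and by 0.72 and 0.40 after 5, and Pygl and the brightest probe set of Phka2 by at most 0.07 in either direction. Ppp1r3d was dim in liver throughout. The brightness filter kept genes at or above the 40th percentile of mean level in the tissue, 10916 genes, among them 7 of the 8 members in liver. As background, 2.67% of all genes tested passed the threshold of an adjusted p under 0.05 in limma at 1 day and 10.6% at 5 days. The share of all genes whose groups did not overlap was not counted in any comparison. Lack of overlap is therefore given only as a description.

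Ppp1r3g read 4.38, 5.06 and 4.75 in the 3 vehicle livers at 1 day and 7.43, 7.03, 7.02 and 9.86 in the 4 baclofen livers. The groups did not overlap, and replicate 4 of the baclofen group stood well above the other 3. The difference was 3.10 ± 0.49 (log2, SE), or 8.6-fold. At 5 days the 4 vehicle livers read 4.37, 4.71, 4.52 and 5.11, and the 8 baclofen livers from 8.13 through a median of 8.56 to 9.40. Again no baclofen liver came near the vehicle range, and the difference was 3.99 ± 0.39, or 15.9-fold. The mean of the 7 vehicle livers stood at percentile 36.8 of the probe sets with 1 symbol, and that of the 12 baclofen livers at percentile 83.6. The vehicle livers all lay under the lowest mean intensity that passed the filter, 42.9, so the gene was tested in liver only because of its level under baclofen, and the fold rests on a dim vehicle signal.

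Ppp1r3c, measured by its brighter probe set, read 8.65, 9.25 and 10.24 in the vehicle livers at 1 day and 11.60, 11.56, 12.12 and 11.18 in the baclofen livers. All 4 baclofen livers lay above all vehicle livers, although the vehicle livers themselves were spread over more than a log2 unit. The difference was 2.23 ± 0.42, or 4.7-fold. At 5 days vehicle read 10.14, 9.77, 9.97 and 9.84, and baclofen ran from 8.81 through a median of 10.58 to 10.99. Here 6 baclofen livers lay above the vehicle range and 2, replicates 3 at 9.69 and 8 at 8.81, below it. The difference at 5 days was 0.41 ± 0.34. The second probe set of the gene gave 2.04 ± 0.35 at 1 day and 0.43 ± 0.28 at 5 days. The direction at 1 day rests on the titles: with the same livers grouped by the source field, the difference was -0.51 for Ppp1r3c and -1.33 for Ppp1r3g, with overlapping groups.

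Ppp1r3b read 9.64, 10.35 and 10.81 in vehicle and 10.91, 10.65, 11.18 and 11.01 in baclofen livers at 1 day, and 3 of the 4 baclofen livers lay above all vehicle livers. The difference was 0.67 ± 0.28, or 1.59-fold. The 5 day vehicle livers read 11.00, 10.35, 9.79 and 9.79, and baclofen ran from 10.33 through 10.80 to 11.06, a difference of 0.51 ± 0.22. The vehicle replicate 1 was as high as the upper baclofen livers, and without it the difference was 0.76. Over all single arrays left out, the difference ran from 0.36 to 0.76. Ppp1r3d lay between 4.13 and 4.55 in every liver, below the filter, and differed by -0.04 ± 0.09 and -0.13 ± 0.07.

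**Figure D1:**
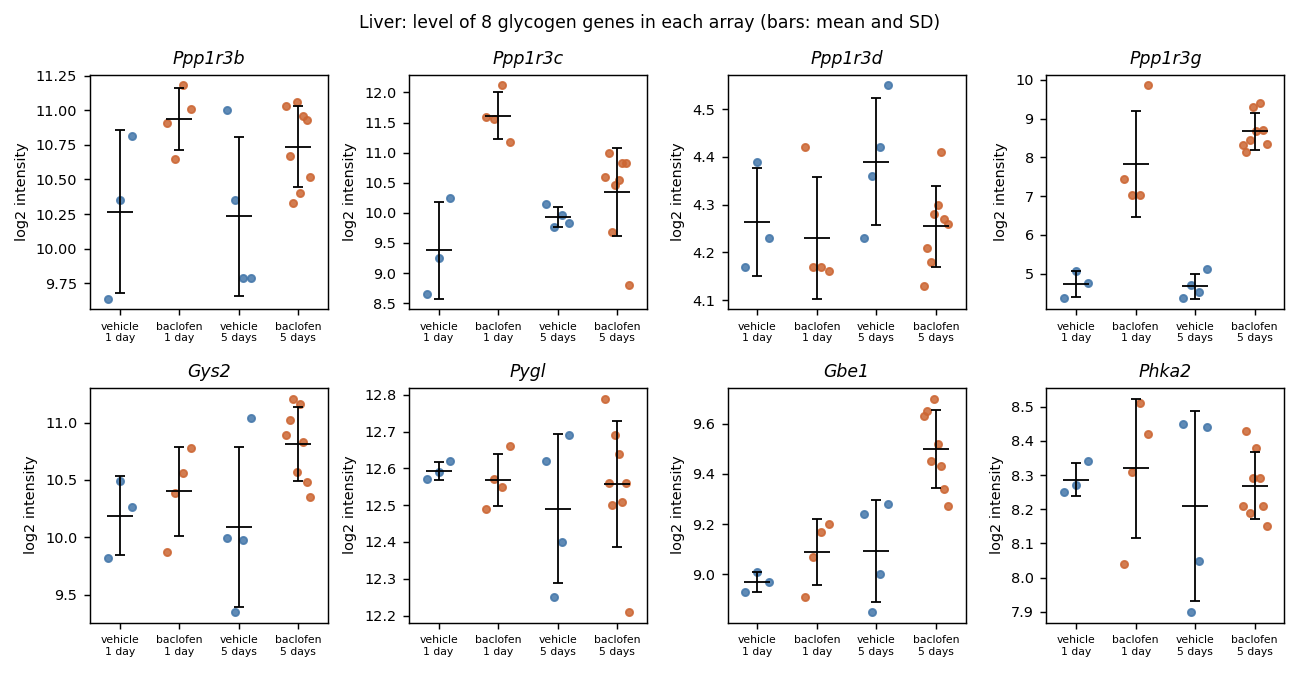
Log2 intensity of the 8 genes in each liver array (y axes differ between panels), for vehicle and baclofen at 1 and 5 days, with a point for each array and bars for the mean and SD. Ppp1r3g separates baclofen from vehicle at both times and Ppp1r3c at 1 day, while the Pygl and Phka2 groups overlap.

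Among the enzymes of synthesis, Gys2 read 9.82, 10.49 and 10.26 in vehicle and 9.87, 10.39, 10.56 and 10.78 in baclofen livers at 1 day, a difference of 0.21 ± 0.30. After 5 doses vehicle read 9.99, 9.35, 9.98 and 11.04, and baclofen ran from 10.35 through 10.86 to 11.21. Vehicle replicate 4 was as high as the upper baclofen livers and the other 3 lay below all of them. The difference was 0.72 ± 0.24, or 1.65-fold, and leaving out vehicle replicate 4 gave 1.04. Over all single arrays left out, the difference ran from 0.48 to 1.04. Gbe1 read 8.93, 9.01 and 8.97 in vehicle and 8.91, 9.07, 9.17 and 9.20 in baclofen livers at 1 day, a difference of 0.12 ± 0.11. At 5 days vehicle read 9.24, 8.85, 9.0 and 9.28, and baclofen from 9.27 through 9.49 to 9.70. Of the 8 baclofen livers 7 lay above all vehicle livers, and the difference was 0.40 ± 0.09, or 1.32-fold.

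Among the genes of breakdown, Pygl stayed between 12.21 and 12.79 in every liver and was one of the brightest transcripts there. Its mean stood at percentile 99.1 of all such probe sets in vehicle and 99.2 in baclofen livers. It differed by -0.03 ± 0.11 at 1 day and 0.07 ± 0.09 at 5 days. Phka2, by its brightest probe set, ran from 7.90 to 8.51 and differed by 0.03 ± 0.12 and 0.06 ± 0.10. A dimmer Phka2 probe set read 5.50, 5.73 and 5.61 in vehicle and 5.48, 5.39, 5.37 and 5.26 in baclofen livers at 1 day. There the groups did not overlap by a narrow margin, with a difference of -0.24 ± 0.08, and at 5 days it differed by -0.17 ± 0.07. The remaining probe set gave -0.11 ± 0.13 and 0.00 ± 0.11, so the Phka2 probe sets do not share a direction.

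The liver differences at 1 and 5 days use separate vehicle groups, and their change from 1 to 5 days was taken from the same fit, in which 0.0183% of all genes passed, that is 2. The members' changes are given without a test. Ppp1r3c had the largest, -1.82 ± 0.54, with -1.61 ± 0.45 in its other probe set. Ppp1r3g changed by 0.88 ± 0.63, Gys2 by 0.51 ± 0.39, Gbe1 by 0.29 ± 0.14 and Ppp1r3b by -0.16 ± 0.36.

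Markers of cell types also moved with treatment in liver. The gap from 5' to 3' signal in the control probe sets, which tracks RNA quality, averaged 0.44 to 0.50 in the 4 groups. The hepatocyte marker mean was 14.37 (vehicle) and 14.53 (baclofen) at 1 day and 14.38 and 14.54 at 5 days, with 9 and 8 of 10 markers higher and no overlap between the groups at either time (14.32 to 14.41 against 14.50 to 14.55, and 14.30 to 14.44 against 14.52 to 14.57). Their median marker difference was 0.02 and 0.06, less than the gap between the group means, so a typical marker moved less than the mean did. Macrophage markers ran from 8.52 to 9.27 in vehicle and 8.23 to 9.04 in baclofen livers at 1 day and from 8.29 to 8.85 and 7.92 to 8.43 at 5 days, with 5 and 6 of 6 markers lower under baclofen, by a median of -0.40 and -0.39. The part of these in the values above was not tested. In bulk tissue, fewer cells of a type and less RNA per cell cannot be told apart.

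Over the 19 livers, the 3 genes whose levels followed each member most closely were found by Pearson's r among the genes that passed the filter, with Spearman's rho beside it. The points share their libraries and include all 4 groups, so r reflects treatment and array alike, and it is given as a description. The closest to Ppp1r3g were Yod1 (r = 0.96, rho = 0.92), Rasgef1b (0.93, 0.87) and Akap13 (0.92, 0.85). Those nearest to Ppp1r3c were Spata2l (0.93, 0.92), Chd1l (0.91, 0.89) and Sec14l4 (0.87, 0.90). Ppp1r3b was followed less closely, with Idh3a, a subunit of isocitrate dehydrogenase, at 0.83 (0.78), Ass1, the urea cycle enzyme, at 0.82 (0.71) and Atp1b1 at 0.80 (0.72). Gys2 ran with Nr1d2, a repressor of the circadian clock, at 0.90 (0.86), with Pcsk4 at 0.90 (0.93) and with Idh3b at 0.90 (0.90). Gbe1 ran with Pfkfb3, the enzyme that makes and removes the glycolytic activator fructose-2,6-bisphosphate, at 0.87 (0.82), and with Rpp40 (0.87, 0.85) and Samm50 (0.87, 0.85). For Pygl they were Acsl5 (0.88, 0.72), Akr1c6 (0.88, 0.58) and Atg10 (0.87, 0.71), and for Phka2 Ank3 (0.88, 0.85), Tamm41 (0.88, 0.82) and Il18 (0.88, 0.80). No gene stands beside more than 1 member, but with only 3 named for each this does not show that their patterns differ.

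**Figure D2:**
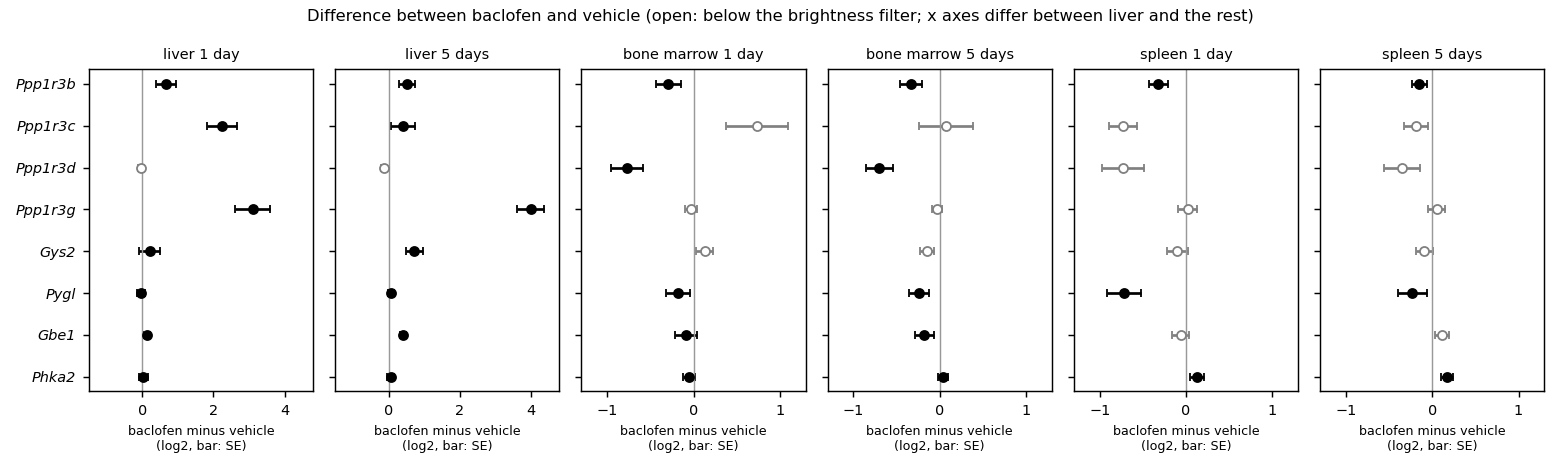
Difference between baclofen and vehicle (log2, with limma's SE as bar) for the 8 genes in each tissue at 1 and 5 days; open grey points are genes below the brightness filter, and the liver panels have a wider x axis. In liver Ppp1r3b, Ppp1r3c and Ppp1r3g lie to the right of 0, up to 3.99 for Ppp1r3g at 5 days, and Ppp1r3d lies at -0.04 and -0.13; in marrow Ppp1r3d lies at -0.77 and -0.70.

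Bone marrow gave another picture. The targeting subunit gene Ppp1r3d, dim in liver, was well expressed there, at percentile 75.6 of the probe sets in vehicle marrow against percentile 30.1 in vehicle liver, and fell with baclofen at both times. Pygl was as high in rank as in liver, at percentile 99.3 in vehicle marrow. Gys2 and Ppp1r3g were dim, at percentiles 12.1 and 15.5. Of 5 members above the filter, 1 fell and 0 rose at each time, Ppp1r3d, where 7.36% of all genes passed at 1 day and 10.1% at 5 days. The median difference of the 5 was -0.18 at 1 day and -0.24 at 5 days, beside 0.00 over all genes tested at both.

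Ppp1r3d read 8.86, 8.86, 8.61 and 8.41 in vehicle marrow at 1 day and 7.75, 7.76, 8.32 and 7.84 in baclofen marrow. The groups did not overlap, with baclofen replicate 3 closest to vehicle, but the share of all genes without overlap was not counted. Ppp1r3d fell by 0.77 ± 0.19, or 1.70-fold (limma, adjusted p = 0.0187). At 5 days vehicle read 8.45, 8.90, 8.75 and 8.16, and baclofen ran from 7.52 through a median of 7.75 to 8.44. Of the 8 baclofen marrows 7 lay below the vehicle range, and replicate 8 reached into it. It fell by 0.70 ± 0.16, or 1.62-fold (limma, adjusted p = 0.0141).

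When single arrays were left out, this difference ran from -0.90 to -0.71 at 1 day and from -0.84 to -0.59 at 5 days. It stayed below 0, but its adjusted p lay near the threshold. At 1 day it was lost without baclofen replicate 1, 2 or 4 (-0.71, -0.71 and -0.74, adjusted p = 0.0691, 0.0577 and 0.0585), and it was -0.90 without replicate 3, the array with muscle transcripts. At 5 days it was lost without vehicle replicate 3 (-0.64, adjusted p = 0.0534). All 7 neutrophil markers measured were lower on average in baclofen marrow at both times, from 14.26 to 14.35 in vehicle against 14.07 to 14.34 in baclofen at 1 day and from 14.21 to 14.36 against 14.06 to 14.31 at 5 days. Erythroid markers ran from 10.52 to 10.80 and from 10.55 to 10.83 at 1 day, and from 10.33 to 10.76 and from 10.66 to 10.98 at 5 days. All 5 erythroid markers were higher on average at 5 days. Macrophage markers were higher in 6 of 6 at both times, from 7.91 to 8.37 in vehicle against 8.22 to 8.74 in baclofen at 1 day and, without overlap, from 8.25 to 8.48 against 8.49 to 9.05 at 5 days. Of 3 adipocyte markers 2 were higher at 1 day and 3 at 5 days, by medians of 0.43 and 0.61. Skeletal muscle markers were higher on average in 10 of 10 at both times, by 0.50 and 0.14. At 1 day their mean was 7.27, 7.29, 7.45 and 6.78 in vehicle and 6.66, 7.15, 9.53 and 7.27 in baclofen marrows. Only baclofen replicate 3, at 9.53, lay above the vehicle range. The part of these cell types in the Ppp1r3d values was not tested.

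**Figure D3:**
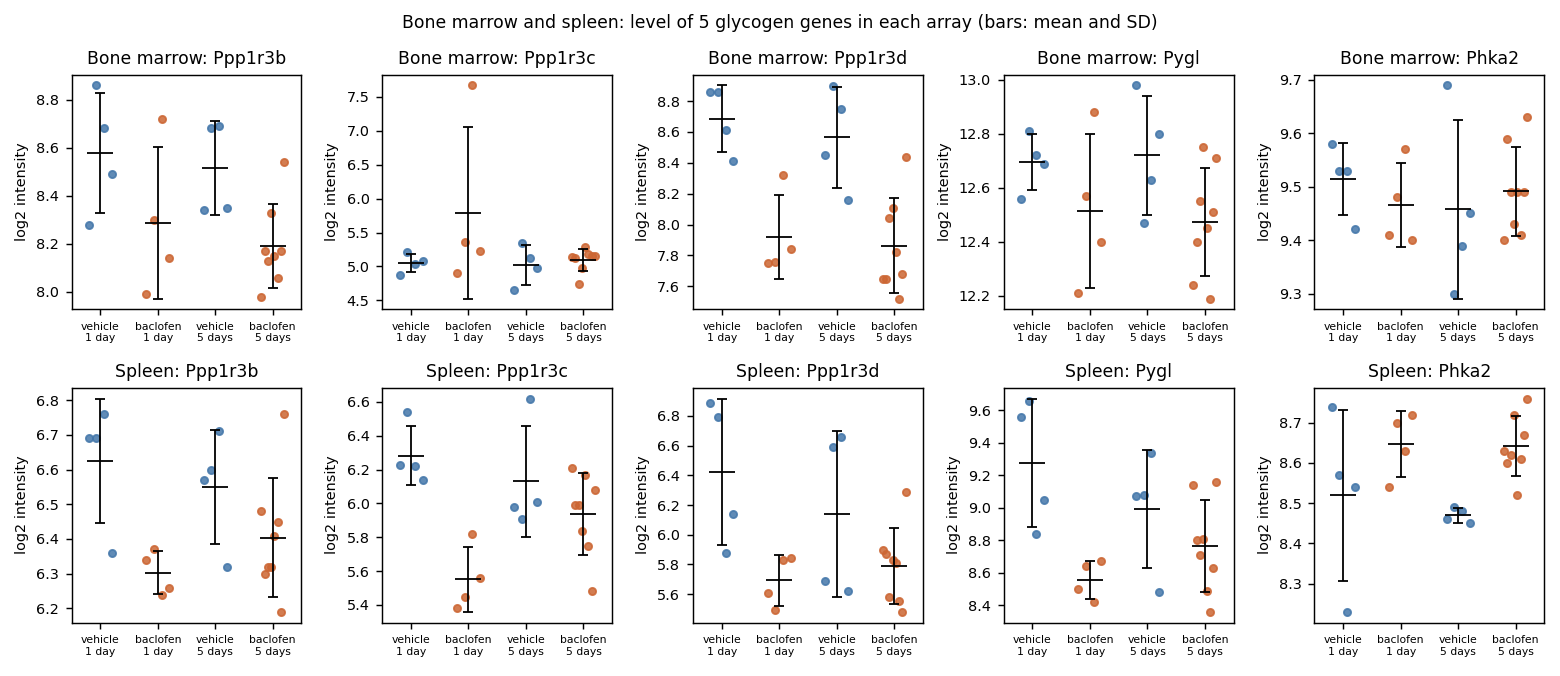
Log2 intensity of 5 of the genes in each bone marrow (top) and spleen (bottom) array, for vehicle and baclofen at 1 and 5 days, with bars for the mean and SD; y axes differ between panels. Ppp1r3d in marrow is lower under baclofen at both times, and the single high Ppp1r3c point of 7.67 in marrow is the array with muscle transcripts.

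The other targeting subunit above the filter in marrow, Ppp1r3b, read 8.28, 8.86, 8.68 and 8.49 in vehicle and 7.99, 8.30, 8.72 and 8.14 in baclofen at 1 day. At 5 days vehicle read 8.34, 8.68, 8.69 and 8.35, and baclofen from 7.98 through 8.16 to 8.54, with 7 of 8 baclofen marrows below all vehicle marrows. The differences were -0.29 ± 0.15 (adjusted p = 0.235) and -0.33 ± 0.13 (adjusted p = 0.104) and did not pass. They did pass with array weights, at -0.42 (adjusted p = 0.0132) and -0.50 (adjusted p = 6.9e-05), where 2416 and 4404 of all genes passed. They also passed without baclofen replicate 3 at 1 day (-0.43, adjusted p = 0.0422) and without baclofen replicate 8 at 5 days (-0.37, adjusted p = 0.0436). Without each other single array they did not pass, in 7 of 8 fits at 1 day and 11 of 12 at 5 days. Over all single arrays left out the differences ran from -0.43 to -0.19 at 1 day (highest adjusted p = 0.55). At 5 days they ran from -0.38 to -0.27 (highest adjusted p = 0.26). Pygl differed by -0.18 ± 0.14 and -0.24 ± 0.12, Gbe1 by -0.09 ± 0.13 and -0.18 ± 0.11, and Phka2 by -0.05 ± 0.07 and 0.04 ± 0.06. None of these passed, with adjusted p-values from 0.201 to 0.774. All 3 had overlapping groups at both times.

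Ppp1r3c, Ppp1r3g and Gys2 lay below the filter in marrow and were compared with exact permutation tests, 2-sided, in which the smallest possible p is 0.0286 at 1 day and 0.00202 at 5 days. None reached 0.05; over both tissues 16 such tests were run. Ppp1r3c read 4.88, 5.21, 5.04 and 5.08 in vehicle at 1 day and 4.91, 5.36, 7.67 and 5.23 in baclofen. The value of 7.67 came from replicate 3, which also held the highest value of 9 of the 10 muscle markers. The difference was 0.74 with it (exact p = 0.2) and 0.12 without it (exact p = 0.371), and the second Ppp1r3c probe set read 5.24 in that array. Ppp1r3g differed by -0.03 at both times, and Gys2 by 0.13 and -0.15.

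In spleen after 1 dose, Pygl and the targeting subunit gene Ppp1r3b fell with baclofen. Ppp1r3c and Ppp1r3d, below the filter there, differed by -0.73 each. Their exact p of 0.0286 was the smallest possible and became 0.229 after adjustment. This test therefore cannot decide whether they fell. After 5 doses no member passed. Of 3 members above the filter at 1 day, 2 fell and 0 rose, Pygl and Ppp1r3b, where 15.5% of all genes passed. At 5 days 0 of 3 passed, where 4.43% of all genes did and 2822 genes had an unadjusted p under 0.05. The median difference of the 3 was -0.32 and -0.15, beside -0.03 and 0.00 over all genes.

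Pygl read 9.56, 9.66, 8.84 and 9.05 in vehicle spleens at 1 day and 8.50, 8.64, 8.42 and 8.67 in baclofen spleens. All 4 baclofen spleens lay below all vehicle spleens, of which replicates 1 and 2 were the highest. Pygl fell by 0.72 ± 0.20, or 1.65-fold (limma, adjusted p = 0.0204). Leaving out vehicle replicate 1 (-0.63, adjusted p = 0.0705) or 2 (-0.60, adjusted p = 0.0733) or baclofen replicate 1 (-0.71, adjusted p = 0.0543) ended the call. The 5 day vehicle spleens read 9.07, 9.08, 9.34 and 8.48, and baclofen from 8.36 through 8.76 to 9.16, a difference of -0.23 ± 0.17 (adjusted p = 0.402). The groups overlapped at that time.

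Ppp1r3b read 6.69, 6.69, 6.76 and 6.36 in vehicle and 6.34, 6.37, 6.24 and 6.26 in baclofen spleens at 1 day, so that vehicle replicate 4 lay within the baclofen range. Ppp1r3b fell by 0.32 ± 0.11 (limma, adjusted p = 0.0481). This call was the least steady of the set. It was lost in 8 of 11 other settings, among them the threshold of 0.01, which ends any call at 0.0481. It was also lost without 7 of the 8 single arrays, all but vehicle replicate 4, and over these 8 the adjusted p ran from 0.0203 to 0.114. At 5 days it differed by -0.15 ± 0.09 (adjusted p = 0.314). Phka2 differed by 0.13 ± 0.08 at 1 day (adjusted p = 0.269).

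At 5 days Phka2 read 8.46, 8.49, 8.48 and 8.45 in vehicle spleens, and from 8.52 through 8.62 to 8.76 in baclofen spleens. All 8 baclofen spleens lay above the narrow vehicle range, yet the difference of 0.17 ± 0.07 did not pass (adjusted p = 0.133). The dimmest Phka2 probe set differed by 0.62 ± 0.16 at that time (adjusted p = 0.0513 over all probe sets) and the other by 0.06 ± 0.11.

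Ppp1r3c, Ppp1r3d, Ppp1r3g, Gys2 and Gbe1 lay below the filter in spleen. Ppp1r3c read 6.23, 6.54, 6.22 and 6.14 in vehicle and 5.38, 5.45, 5.82 and 5.56 in baclofen spleens at 1 day. Ppp1r3d read 6.89, 6.79, 5.88 and 6.14 in vehicle and 5.61, 5.49, 5.83 and 5.84 in baclofen. Neither gene's groups overlapped, and both differed by -0.73. How many of all genes had spleen groups without overlap at 1 day was not counted. The exact p was 0.0286 for each, the smallest that 4 against 4 arrays can give, and 0.229 after adjustment over the 16 tests. In the fit without a filter the adjusted p was 0.00755 for Ppp1r3c and 0.0659 for Ppp1r3d. The second Ppp1r3c probe set differed by -0.22 ± 0.12. At 5 days Ppp1r3c differed by -0.19 (exact p = 0.299) and Ppp1r3d by -0.35 (exact p = 0.166).

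Markers of several cell types moved with these spleen values, neutrophil markers by the largest median at 1 day, -1.12. All 7 markers measured were lower on average with baclofen at 1 day. Their mean was 11.47, 11.34, 9.70 and 10.74 in the vehicle spleens, in the order of the values above, and 9.90, 9.60, 9.60 and 9.73 in the baclofen spleens. At 5 days it ran from 9.90 to 10.86 in vehicle and from 8.96 to 10.92 in baclofen, again with all 7 lower on average. Vehicle replicates 1 and 2 at 1 day were highest both in these markers and in Pygl and Ppp1r3d. Vehicle replicate 3, at 9.70, lay within the baclofen range of these markers. It still read above all 4 baclofen spleens in Pygl (8.84), Ppp1r3d (5.88) and Ppp1r3c. Ppp1r3b was highest in vehicle replicate 3, the vehicle spleen with the lowest neutrophil mean. Erythroid markers were lower in 5 of 5 at 1 day, with means of 10.64, 10.09, 8.91 and 9.98 in vehicle and 9.18 to 9.65 in baclofen spleens. Adipocyte markers were lower in 3 of 3 at 1 day, by a median of -0.68. Their mean ran from 4.86 to 6.60 in vehicle and from 4.63 to 5.93 in baclofen spleens. T cell markers were higher in 4 of 4, by a median of 0.39, and B cell markers in 4 of 4, by 0.21. At 5 days erythroid markers were lower in 4 of 5, by -0.96, and the 3 adipocyte markers were higher, by 2.30. The part of these markers in the Pygl, Ppp1r3b, Ppp1r3d and Ppp1r3c values was not tested.

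**Figure D4:**
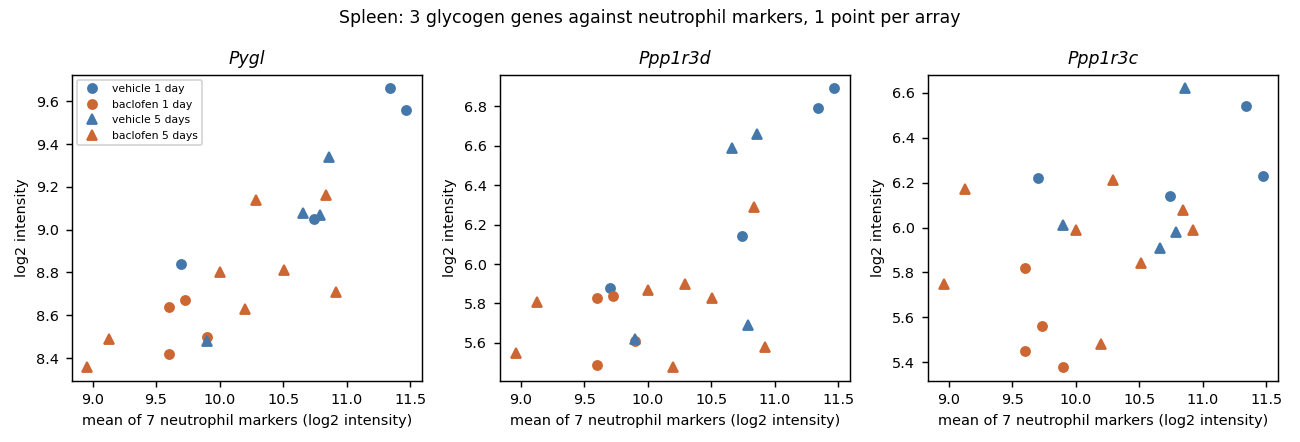
Log2 intensity of Pygl, Ppp1r3d and Ppp1r3c (y axes) against the mean of 7 neutrophil markers (x axis, log2 intensity), with a point for each of the 20 spleen arrays; colour marks the treatment and shape the day. The vehicle spleens at 1 day with neutrophil means of 11.47 and 11.34 have the 2 highest Pygl and Ppp1r3d values. The vehicle spleen of that day at 9.70 lies above all baclofen spleens of that day in each panel. Ppp1r3b, which also fell at 1 day, is not plotted.

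In the 3 spleens with liver transcripts the genes that are bright in liver were raised little. Gys2 read 4.50, 4.78 and 4.82 there, against 4.21 to 4.63 in the other 17 spleens, and Ppp1r3c 5.98, 6.62 and 6.17 against 5.38 to 6.54. Pygl read 9.07, 9.34 and 8.49 in these 3, within the 8.36 to 9.66 of the others. Gbe1 also stayed inside the range of the others, and Ppp1r3g read 4.92, 4.53 and 4.71 against 4.56 to 5.10. Gys2, Ppp1r3g and Gbe1 differed between baclofen and vehicle spleens by -0.10 to 0.11 over both times, and none of these reached an exact p of 0.05.

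Without these 3 arrays, 2 vehicle and 7 baclofen spleens remain at 5 days. The difference of Pygl then was 0.02 (adjusted p = 0.963) in place of -0.23, that of Ppp1r3b -0.06 (adjusted p = 0.807) in place of -0.15, and that of Phka2 0.19 (adjusted p = 0.244). Below the filter, Ppp1r3c then differed by -0.06 (exact p = 0.75), Ppp1r3d by -0.32 (exact p = 0.306) and Gbe1 by 0.22 (exact p = 0.167), where 0.0278 is the smallest p possible. None of the members passed at 5 days in spleen, with or without these arrays. Arrays were not left out by adipocyte markers. In the spleens kept, the adipocyte mean was 4.81 and 4.62 in vehicle and ran from 4.97 to 8.06 in baclofen. The part of these markers in the values was not tested.

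The differences at 5 days were set against each other between tissues in a fit of all 12 groups, on genes above the filter in both tissues. The liver part of these was known when the genes were listed, so the values are given without p for members. Between liver and marrow, where 7.8% of all genes tested passed, the difference was 0.83 ± 0.23 higher in liver for Ppp1r3b and 0.58 ± 0.14 higher for the branching enzyme gene Gbe1. Pygl gave 0.32 ± 0.19 and Phka2 0.02 ± 0.11. Between liver and spleen, where 11.7% of all genes passed, Ppp1r3b gave 0.65 ± 0.23, Pygl 0.30 ± 0.19 and Phka2 -0.12 ± 0.11. Without the 3 spleens with liver transcripts, Ppp1r3b gave 0.57 and Pygl 0.05 between liver and spleen, and against marrow Ppp1r3b and Gbe1 stayed at 0.83 and 0.58. Members below the filter in a tissue compared were read from the same fit without the filter. Ppp1r3g, below the filter outside liver, had 3.93 ± 0.35 between liver and spleen, its 3.99 in liver standing beside 0.05 in spleen and -0.03 in marrow. Gys2 gave 0.88 ± 0.23 against marrow and 0.81 ± 0.23 against spleen. Ppp1r3c gave 0.34 ± 0.42 and 0.61 ± 0.42, Ppp1r3d 0.57 ± 0.24 and 0.22 ± 0.24, and Gbe1 0.29 ± 0.14 against spleen.

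A list of other glycogen genes was chosen by function, with earlier results of these data known. The p-values of these genes, here and between tissues, are therefore descriptive. The list has a probe set for 23 genes, among them the muscle synthase, glycogenin, the phosphoglucomutases, and further phosphorylases and phosphorylase kinase subunits. It also holds further targeting subunits, the catalytic subunits of protein phosphatase 1 and the synthase kinases. In liver 19 of the 23 were tested. At 1 day 0 rose and 0 fell, where 1363 of all genes had an unadjusted p under 0.05, and the differences farthest from 0 were 0.29 ± 0.09 for the muscle phosphorylase kinase subunit gene Phka1 (adjusted p = 0.111) and 0.22 ± 0.10 for the phosphatase gene Ppp1cb (adjusted p = 0.356). At 5 days 1 rose and 0 fell. Ugp2, which makes the UDP-glucose that synthase uses, ran from 11.49 to 12.23 in vehicle and from 12.06 to 12.48 in baclofen livers, and rose by 0.48 ± 0.11 (limma, adjusted p = 0.00848). It kept this call without each single array. The median difference of the list was 0.05 at 1 day and -0.02 at 5 days, beside -0.01 and -0.02 over all genes.

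In marrow 17 of the list were tested. At 1 day 0 passed, where 2629 of all genes had an unadjusted p under 0.05, with the largest values in the glycogenin gene Gyg, -0.30 ± 0.14 (adjusted p = 0.185), and the muscle synthase gene Gys1, -0.24 ± 0.17 (adjusted p = 0.404). At 5 days 0 rose and 2 fell. Gyg, which encodes the primer of a new glycogen particle, ran from 11.47 to 12.11 in vehicle and from 11.13 to 11.78 in baclofen, and fell by 0.43 ± 0.12 (limma, adjusted p = 0.0271). Ugp2 ran from 10.94 to 11.18 in vehicle and from 10.59 to 10.92 in baclofen, without overlap, and fell by 0.28 ± 0.07 (limma, adjusted p = 0.0196). Gyg was lost without vehicle replicate 1, 2 or 3 or baclofen replicate 2 or 6 (highest adjusted p = 0.134), and Ugp2 without vehicle replicate 1 (adjusted p = 0.101). The list's median was -0.01 and -0.03, beside 0.00 over all genes at both times.

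In spleen 19 were tested, and at 1 day 3 rose and 1 fell. Pgm1, a phosphoglucomutase, rose by 0.30 ± 0.08 (limma, adjusted p = 0.0168), from 7.53 to 7.88 in vehicle and from 7.97 to 8.05 in baclofen. Phkg2, a catalytic subunit of phosphorylase kinase, rose by 0.24 ± 0.07 (adjusted p = 0.0227), and the targeting subunit gene Ppp1r3f by 0.23 ± 0.07 (adjusted p = 0.0287). Gyg fell by 0.27 ± 0.08 (adjusted p = 0.0285), with 10.07 to 10.19 in vehicle and 9.76 to 9.94 in baclofen. All 4 calls were lost when only the groups compared were fitted (adjusted p = 0.0507 to 0.105) and when some single arrays were left out. Pgm1 was lost without vehicle replicate 1 or 2, Phkg2 without vehicle replicate 1, 2 or 4 or baclofen replicate 2, and Ppp1r3f and Gyg each without vehicle replicate 2 or 4 or baclofen replicate 1, 2 or 4, with adjusted p-values up to 0.0901. At 5 days 0 of 19 passed, with 0.58 ± 0.18 for the glycogen-binding protein gene Stbd1 (adjusted p = 0.0724) and -0.27 ± 0.11 for Ppp1cb (adjusted p = 0.138) farthest from 0. The list's median was 0.00 at 1 day and 0.04 at 5 days, beside -0.03 and 0.00 over all genes.

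**Figure D5:**
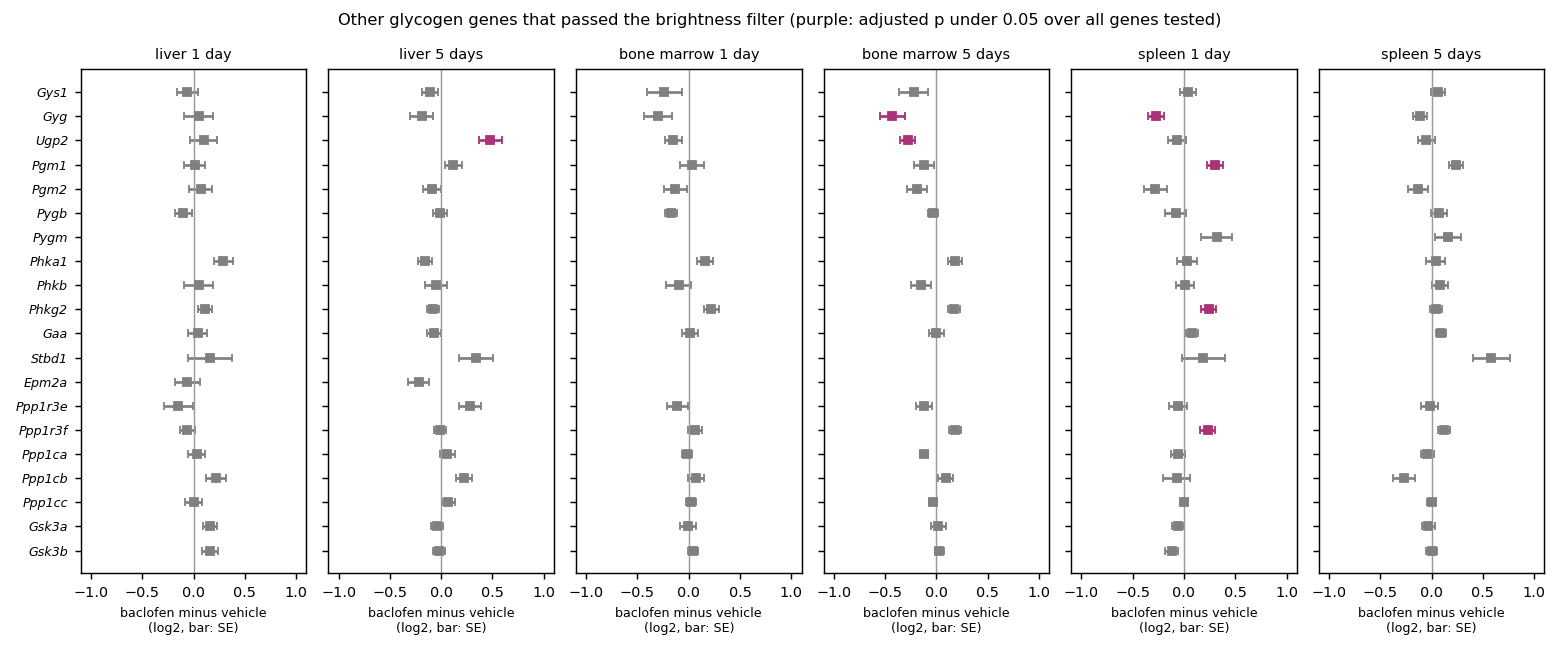
Difference between baclofen and vehicle (log2, with limma's SE as bar) for the other glycogen genes above the brightness filter in each tissue and time; purple marks an adjusted p under 0.05 over all genes tested. Apart from Ugp2 at 0.48 in liver at 5 days, the purple points lie in marrow at 5 days and in spleen at 1 day, between -0.43 and 0.30.

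The difference of Ugp2 between liver and marrow at 5 days was 0.76 ± 0.12 (limma, adjusted p = 3.49e-05) and between liver and spleen 0.53 ± 0.12 (adjusted p = 0.00326), and both held without each single array. Between liver and marrow 4 of 17 listed genes passed, Ugp2 and the targeting subunit gene Ppp1r3e (0.40 ± 0.13, adjusted p = 0.0494) upward and Phka1 (-0.34 ± 0.11, adjusted p = 0.0497) and Phkg2 (-0.25 ± 0.08, adjusted p = 0.0461) downward. The last 3 lay at the threshold and were lost without 15 of 24 single arrays for Ppp1r3e and without 16 of 24 for Phka1 and for Phkg2. Between liver and spleen 2 of 18 passed, Ugp2 and Ppp1cb, the latter with 0.48 ± 0.13 (adjusted p = 0.00925). Without the 3 spleens with liver transcripts Ugp2 gave 0.42 (adjusted p = 0.0395) and Ppp1cb 0.67 (adjusted p = 0.00114).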

How the data were processed

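The authors deposited 1 table of signal intensity per probe set for the 59 Affymetrix arrays, on a linear scale from 5.25 to 43115; RMA and limma are named in the submitters' processing notes, and the chip definition and software versions are not given in the sources used here. The values were transformed to log2 and not normalised again. Of 45101 probe sets, 64 controls, 932 with several gene symbols and 9160 with none were left out. A gene was read from 1 probe set, the brightest on average over a tissue's arrays, and genes under the 40th percentile of mean level were not tested. The lowest mean intensity that passed was 42.9 in liver, 83.6 in marrow and 79.5 in spleen.

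The 3 tissues were modelled separately with limma 3.58.1 in R 4.3.3 (lmFit and eBayes, 4 groups with 1 shared spread per gene); 2-sided p-values were adjusted by Benjamini and Hochberg over all genes tested, with a threshold of 0.05. A further model over all 12 groups compared the tissues. Members below the filter outside liver were compared by exact permutation. Array intensities have no count behind them, and their precision is limited by how many arrays a group has. On simulated shifts the fit was tested before use. Of the other glycogen genes, those past the threshold are named (up to 6 per comparison), otherwise the 2 with the largest difference, and for each member the 3 genes nearest in level. The members and the lists of glycogen genes and cell markers were chosen with earlier results of these data known. The p-values of members and listed genes are therefore descriptive. RefSeq gave coordinates and promoter windows on GRCm38.p6. The alternatives tried were other filters, probe set rules, normalizations and thresholds, array weights and fits of the compared groups only. Further ones were the replicate block, the source field as label, and each array left out. Leaving out the 4 arrays with liver or muscle transcripts was added after seeing the data.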

Additional observations from a re-analysis of the deposited data

Results flagged for a closer look

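In 121 groups of 4 to 8 arrays, 1 array stood apart from the rest in 10; chance alone gives about 1 in 20 groups. In liver these were Ppp1r3g in baclofen 1 day replicate 4 at 9.86, above 3 arrays at 7.02 to 7.43, and the dim Ppp1r3d in baclofen 1 day replicate 1 at 4.42. In marrow baclofen 1 day replicate 3 stood apart for Ppp1r3c at 7.67 and for Ppp1r3d at 8.32; this is the array with muscle markers at 9.53, and their part was not tested. Also in marrow were Gys2 in vehicle 5 day replicate 1 at 4.39 and a dim Phka2 probe set in baclofen 5 day replicate 5 at 6.36. In spleen, Gys2 stood apart in baclofen 5 day replicate 5 at 4.82 and Ppp1r3c in vehicle 5 day replicate 3 at 6.62, arrays whose hepatocyte markers were 9.33 and 9.56. The other spleen arrays were vehicle 1 day replicate 4 for Ppp1r3b at 6.36 and baclofen 5 day replicate 7 for a dim Phka2 probe set at 5.74.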

How the results depend on the processing

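Counts of genes past the threshold are given in the order liver 1 and 5 days, marrow 1 and 5 days, spleen 1 and 5 days, liver change, liver minus marrow, liver minus spleen, and were 291, 1159, 803, 1100, 1697, 484, 2, 731 and 1086. With an adjusted p under 0.01 they were 125, 382, 225, 173, 601, 117, 0, 315 and 396. With all probe sets apart they were 556, 1914 and 1329 for the first 3, 3043 and 957 in spleen, 4 for the liver change and 1919 for liver minus spleen. With array weights they were 518, 720, 2416, 4404, 3651 and 744 in the 6 comparisons within tissues and 1386 for liver minus marrow. A filter at the 60th percentile, or averaging the probe sets of a gene, left 0 for the liver change. A fit of only the compared groups gave 269 in marrow and 676 in spleen at 1 day. Without the 4 arrays with liver or muscle transcripts, a choice made after seeing the data, the count was 1412 in marrow at 1 day and 173 in spleen at 5 days. Leaving out single arrays gave 136 to 306, 584 to 1545, 303 to 1412, 244 to 1674, 952 to 3050, 136 to 758 and 0 to 6 in the first 7 comparisons, and 603 to 1373 for liver minus spleen. The cause of these moves was not tested. Array weights moved the share of higher calls from 61.0% to 50.7% in marrow at 5 days and from 49.1% to 38.3% in spleen at 1 day, where quantile normalization gave 58.9%; median centring moved it from 59.1% to 68.4% in liver at 1 day.

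When the 1 day livers were grouped by the source field 0 genes passed, the liver change counted 72, and Ppp1r3c and Ppp1r3g reversed to -0.51 and -1.33; Ppp1r3g then ran from 4.38 to 9.86 within the vehicle group. The replicate numbers gave no clear sign of pairing vehicle with baclofen arrays within a tissue. Over 23 pairs of arrays with the same number, the correlation of their deviations ran from -0.46 to 0.27 and was over 0.1 in 5. Pairs with unlike numbers, and the same number across tissues, were not examined, so pairing is not excluded. With the replicate block the counts were 139, 231, 413, 2, 871, 2, 0, 195 and 265, and calls were lost for Ppp1r3d in marrow (adjusted p = 0.0558 and 0.157), Gyg and Ugp2 in marrow at 5 days (0.177 and 0.157) and, in spleen at 1 day, Ppp1r3b (0.0601), Gyg (0.0799), Pgm1 (0.0639), Phkg2 (0.104) and Ppp1r3f (0.109), and between liver and marrow for Phka1 (0.191), Phkg2 (0.232) and Ppp1r3e (0.143). Of 707 values under the alternatives, of members in marrow and spleen and of the other glycogen genes named, 570 kept their side of the threshold, of which 3 that passed in neither changed sign, 130 lost the call, 7 gained it and 0 reversed. The losses include those at the threshold of 0.01 on the same fit, which a call between 0.01 and 0.05 cannot survive. Pygl in spleen at 5 days, not called, was -0.23 with all arrays and 0.02 without those with liver transcripts. Intensities near the filter, as of Ppp1r3g in vehicle liver, limit the folds.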
